A study of Homo sapiens with 49 samples.

Results

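SHEP-21N cells after 6 h of doxycycline were compared with the same cells after 2 h. SHEP-21N is a human neuroblastoma line in which MYCN is under TET-off control, so that doxycycline shuts the gene down. The comparison takes 6 of the 49 samples of the series: 3 libraries at 6 h and 3 at 2 h. Genes averaging 1 FPKM or more over the 20 SHEP-21N libraries before rescaling entered it, 11867 of 23713 table entries. FPKM are fragments mapped to a gene, scaled by its transcript length and by the size of the library. Just inside that minimum stood RNASE4 with a mean of 1.00 and just outside it FAXC with 0.9998.

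Both groups were grown in RPMI with 10% tetracycline-free serum and both received doxycycline at 0.2 µg/ml. By the labels they differ in its duration, 2 h or 6 h. The labels name no promoter for the MYCN transgene and do not say whether the line is 1 clone. No library at 2 h or 6 h was kept without doxycycline, so the duration of doxycycline, the loss of MYCN and time in culture cannot be told apart. No label says that replicate libraries came from separate cultures, so the p-values measure the spread between these libraries, which may be technical. The remaining SHEP-21N libraries (0 h, 2 libraries; 4, 8, 16 and 24 h, 3 libraries per time) served to estimate the spread and are quoted beside the results. Libraries of 1 time are told apart by the number that ends their column name, which runs from 0 to 2.

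MYCN encodes a transcription factor of the MYC family. It pairs with MAX, binds DNA at E-boxes and raises the transcription of many genes, among them those that build ribosomes. MAX also pairs with MNT and the MXD proteins, which repress from the same sites. The MYCN gene is amplified in a large part of high-risk neuroblastomas, and MYCN mRNA and protein are both short-lived.

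Values are FPKM that the authors rescaled to ERCC spike-in RNA, unless they are called unnormalised. A change is the difference of means of log2(rescaled FPKM + 1), 6 h minus 2 h, which understates the change of genes with low FPKM. A gene rose or fell where its adjusted p, the Benjamini-Hochberg value of limma's moderated test over all 11867 genes, was under 0.05.

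Read numbers are not part of FPKM, so library depth is unknown. Across the 6 libraries the unnormalised FPKM of genes summed to 814122 to 952759 and the spike-ins to 27671 to 36519. The ratio of rescaled to unnormalised values ran from 0.957 to 1.22, and the highest was that of 2 h library 0. Defining markers of mesenchymal neuroblastoma cells were present, with VIM at 385 to 502 and FN1 at 56.5 to 65.9 unnormalised FPKM. Among adrenergic markers, TH did not exceed 0.0214 and GATA3 did not exceed 0.47, but HAND2 stood at 34.6 to 43.7. Markers that define epithelial, glial, blood and endothelial cells (EPCAM, SOX10, PTPRC, PECAM1) did not exceed 0.121. Of those 4 lists, 3, 1, 1 and 0 genes were tested and none rose or fell. The summed epithelial list, which KRT8 and KRT18 lead, ran from 822 to 1033 rescaled FPKM at 2 h and from 657 to 805 at 6 h. Neither keratin was called. The summed adrenergic list, led by TUBB3, ran from 267 to 353 at 2 h and from 234 to 281 at 6 h. The glial list ran from 28.2 to 36.3 and from 25.8 to 32.1, the blood list from 6.94 to 9.70 and from 6.92 to 8.99, and the endothelial list from 2.06 to 2.52 and from 1.97 to 2.08. The part of these markers in the results was not tested. Fewer cells of a type and less RNA per cell cannot be told apart in such bulk samples.

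Libraries 0 and 1 of the 2 h group stood apart from the other 18 SHEP-21N libraries. Their median over 47 tested replication histone genes was 12.7 and 14.3 FPKM, against 1.08 to 2.83 in the others. Of these 47 genes, 44 were higher in both than in each of the other 18. SNORA63, a small nucleolar RNA, stood at 508 and 528 FPKM in these libraries and at 102 in 2 h library 2. Such RNAs largely lack a poly(A) tail, and the libraries were made from polyadenylated RNA.

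**Figure D1:**
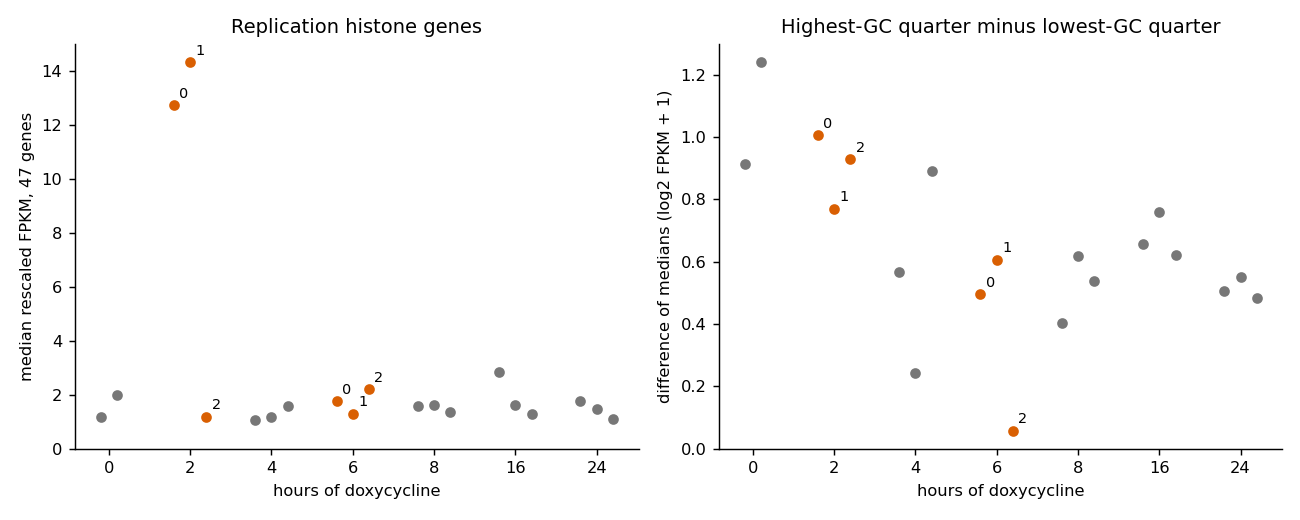
Left, the median rescaled FPKM over 47 replication histone genes in each of the 20 libraries by hours of doxycycline. Right, the median log2(unnormalised FPKM + 1) of the 2888 genes with the highest transcript GC content minus that of the 2888 genes with the lowest. Libraries of 2 h and 6 h are in orange with their number. Histone RNA is high in 2 h libraries 0 and 1 alone, and the GC difference is lowest in 6 h library 2, at 0.0584.

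MYCN fell further between 2 h and 6 h. The 2 h libraries held 188, 143 and 145 FPKM of it and the 6 h libraries 14.8, 15 and 11.6. The groups do not overlap, and the 6 h mean was 8.71% of the 2 h mean. The log2 change was −3.43 (SE 0.20, adjusted p = 7.68e-09, limma). The 0 h mean was 789 FPKM and the 4 h mean 32.0. The 8, 16 and 24 h means, 14.7, 12.0 and 14.1, were close to the 6 h mean of 13.8 ± 1.91 (SD, n = 3). MYCNOS, which overlaps MYCN on the other strand, went from 2.89 ± 0.484 to 0.305 ± 0.129 FPKM (change −1.57, adjusted p = 2.53e-05, limma). The sources used here do not say whether counting used strand, so reads of MYCN and MYCNOS cannot be told apart.

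In all, 187 of 11867 genes (1.58%) rose and 517 (4.36%) fell. At an unadjusted p under 0.05 there were 2946 genes. The median change of all tested genes was −0.10. The median log2 level of the libraries was 3.77 ± 0.187 at 2 h and 3.65 ± 0.0328 at 6 h (SD, n = 3). With 3 against 3 libraries a two-sided exact permutation test cannot give less than p = 0.1, so it could not show a difference, and it gave p = 0.4. Changes of at least 1 on the log2 scale were seen in 7 of the rises and 55 of the falls. The libraries of the groups did not overlap for 186 of the rises and 509 of the falls. Among all tested genes, 10.9% lay higher and 31.4% lower at 6 h without overlap.

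Unnormalised FPKM gave more calls: 2745 rises (23.1%) and 3451 falls (29.1%). Each of the 187 rises and 517 falls was called in the same direction there. The share of calls that were rises was 26.6% on rescaled values, 44.3% on unnormalised values and 54.8% after centring each library on its median. The calls also rest on single libraries. Of the 187 rises 17 and of the 517 falls 82 were called without each of the 6 libraries in turn. Without 2 h library 0, 50 genes rose and 88 fell, and without 6 h library 2, 22 rose and 92 fell. Without 2 h library 1 there were 50 rises and 255 falls, without 2 h library 2 40 and 429, without 6 h library 0 36 and 203, and without 6 h library 1 196 and 267. Without both 2 h libraries that stood apart, a single 2 h library remained, assumed to vary like the other groups. On rescaled values 3 genes then rose and 8 fell, and on unnormalised values 174 of the 187 rises and 489 of the 517 falls were still called.

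Transcript GC content moved with the comparison. The 2888 genes with the lowest GC had a median change of 0.15 and the 2888 with the highest GC −0.31. The rises had a median GC content of 40.1% and the falls of 56.4%, against 48.3% for all tested genes with a transcript in GENCODE 29. The rises were also longer, with a median transcript of 5442 bases against 3635 for the falls and 3559 overall. The median level of the high-GC genes minus that of the low-GC genes, on the unnormalised log2 scale, was 0.497, 0.606 and 0.0584 in 6 h libraries 0, 1 and 2. At 2 h it was 1.01, 0.770 and 0.929, so that 2 h library 0 was the highest of the 6 and 6 h library 2 the lowest. The part of GC content in the calls was not tested beyond a correction. After each library's trend on GC and length was removed, 49 of the 187 rises and 312 of the 517 falls were still called on rescaled values, and 187 and 505 on unnormalised values. Of the 95 called members of the gene lists described further on, 69 then kept the call on rescaled values. The 26 that lost it were PFAS, DHODH, MRPS2, MCM10, SEL1L, PFKFB3, ELL, AFF4, MED13, SF3A2, TEAD4, SKI, CCNG2, YPEL5, EPGN, SRF, FOSL2, NR4A1, TRIB3, PWP2, POLR3D, NOB1, NOP2, TAF1C, HIST1H2BI and HIST1H1E.

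**Figure D2:**
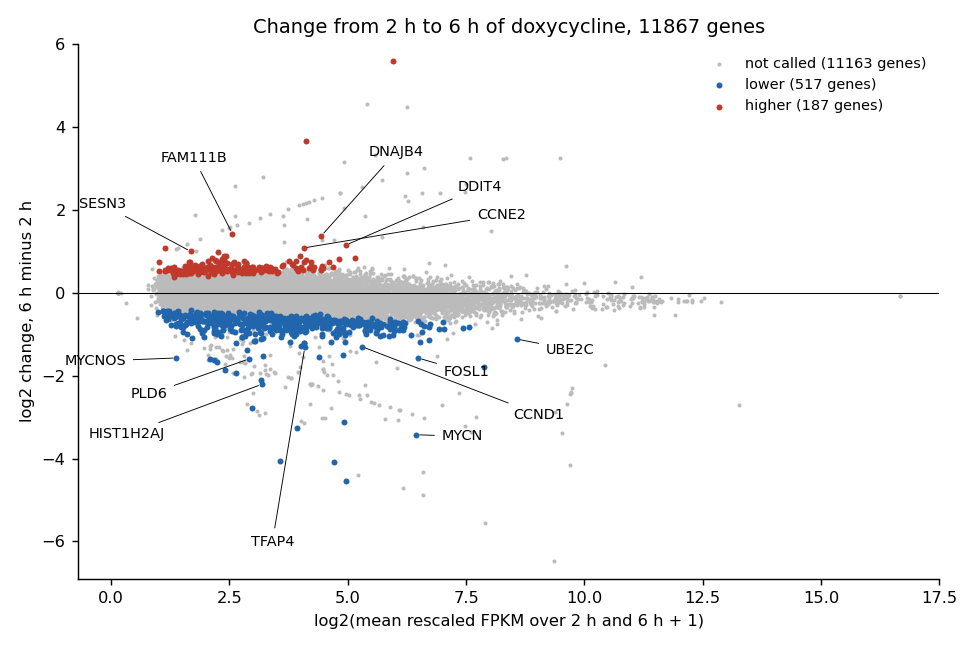
The log2 change from 2 h to 6 h of 11867 genes against their level in these 6 libraries on a log2 scale. Rises are red, falls are blue and genes not called are grey. MYCN, at −3.43, lies far below the other named mRNAs, and most of the remaining points beyond 2 in either direction are small RNAs and histone genes.

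Among the largest falls were regulators of the MYC network. Apart from MYCN, small and uncharacterised RNAs (among them antisense RNAs with -AS in their symbol) and genes whose groups overlap, the 15 largest falls ran from −1.62 to −1.21. They were HIST1H2BN, PLD6, HIST1H3F, FOSL1, MYCNOS, FJX1, MFSD2A, KLF16, MNT, TFAP4, CCND1, CD3EAP, HK2, FAM86JP and USP36. Larger falls among those set aside included SNORA68 (−4.53), VTRNA1-1 (−4.07) and ZFX-AS1 (−3.11), named after their values were seen, of which ZFX-AS1 was called without each of the 6 libraries. SNORA68 lost the call without 2 h library 0, 6 h library 0 or 6 h library 2, and VTRNA1-1 also without 2 h library 1. Of the 15, 14 kept the call without each of the 6 libraries in turn. HIST1H3F lost it without 2 h library 0, 2 h library 1 or 6 h library 2. HIST1H2BN was at 7.30 and 8.14 FPKM in 2 h libraries 0 and 1 but at 2.35 in 2 h library 2. MYCNOS, MFSD2A and CD3EAP were also called with 2 h library 2 as the only 2 h library.

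PLD6, a phospholipase D family protein of the mitochondrial surface, stood at 12.8, 9.06 and 9.25 FPKM at 2 h and at 3.29, 3.04 and 2.00 at 6 h. The groups are well apart, and the change was −1.59 (SE 0.21, adjusted p = 3.15e-04, limma). The 0 h mean, 10.5, was close to the 2 h mean, and the 24 h mean was 3.47.

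TFAP4, which encodes the E-box factor AP4, was at 25.3, 22.8 and 21.9 FPKM at 2 h and at 8.69, 8.96 and 8.55 at 6 h. The 6 h libraries had an SD of 0.206 FPKM, and the change was −1.32 (SE 0.17, adjusted p = 3.15e-04). MNT, the MAX partner that represses from E-boxes, went from 11.7, 8.32 and 8.91 to 3.54, 3.11 and 2.56 FPKM, a change of −1.38 (SE 0.18, adjusted p = 3.68e-04). Its mean was lowest at 6 h, and at 8, 16 and 24 h it stood at 5.41, 5.23 and 5.59. Both p-values are from limma.

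CCND1, which encodes cyclin D1, was at 64.6, 50.5 and 50.2 FPKM at 2 h and at 22.3, 22.2 and 20.4 at 6 h (change −1.30, SE 0.17, adjusted p = 3.68e-04, limma). FOSL1, the AP-1 subunit FRA1, was at 159, 120 and 122 and then at 42.8, 49.8 and 39.5 (change −1.58, SE 0.21, adjusted p = 3.98e-04). In both genes 2 h library 0 was the highest, and every 2 h library was far above every 6 h library. Neither stayed at its 6 h level: the 16 h means were 41.5 for CCND1 and 81.6 for FOSL1, and the 24 h means 15.3 and 27.8.

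The other large falls span several functions. HK2, a hexokinase, which phosphorylates glucose, went from 22.6 ± 4.09 to 9.02 ± 0.184 FPKM (change −1.22). MFSD2A, a transporter of lysophospholipids that carry omega-3 fatty acids, went from 12.8 ± 1.66 to 3.78 ± 0.255 (change −1.53). FJX1, a secreted protein of the four-jointed family, went from 30.4 ± 5.96 to 9.60 ± 1.17 (change −1.56).
KLF16, a zinc-finger repressor, went from 43.1 ± 6.55 to 14.6 ± 1.86 (change −1.49), and USP36, a nucleolar deubiquitinase, from 22.5 ± 3.40 to 9.12 ± 0.592 (change −1.21). FAM86JP is 1 of 10 tested entries of the FAM86 family, 8 of which fell, where 4.36% of all tested genes did. These entries are near-identical copies, so how reads were divided among them is uncertain and their calls are not separate observations.

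The E-box letters CACGTG, to which MYC proteins bind with MAX, were searched in RefSeq promoters (build GRCh38.p14, 250 bases before to 50 after a gene's start, the first start listed for each gene). The letters read the same on both strands. They occur in 7.43% of 27305 promoters, and in 6.49% of them within the 250 bases before the start. Among tested genes 9247 (77.9%) had a promoter in the table, and 10.6% of these held the letters. Of the 15 named falls only 10 had one, too few for a share. The 250 bases before the start of the 4 that held the letters are shown, 5′ to 3′ on the gene's strand, with CACGTG in capitals, because they place the letters in genes that fell together.
FJX1, chr11:35618210-35618459, plus strand: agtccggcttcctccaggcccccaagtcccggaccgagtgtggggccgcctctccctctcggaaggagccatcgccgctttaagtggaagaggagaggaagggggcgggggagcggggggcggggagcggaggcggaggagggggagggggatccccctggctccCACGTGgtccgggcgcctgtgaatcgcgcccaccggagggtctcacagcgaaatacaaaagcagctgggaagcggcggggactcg
MNT, chr17:2401061-2401310, minus strand: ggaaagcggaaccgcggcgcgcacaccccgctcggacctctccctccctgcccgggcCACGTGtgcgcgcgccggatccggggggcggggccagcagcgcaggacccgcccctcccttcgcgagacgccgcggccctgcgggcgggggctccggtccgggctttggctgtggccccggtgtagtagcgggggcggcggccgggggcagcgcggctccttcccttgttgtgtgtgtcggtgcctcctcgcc
CD3EAP (listed as POLR1G), chr19:45406394-45406643, plus strand: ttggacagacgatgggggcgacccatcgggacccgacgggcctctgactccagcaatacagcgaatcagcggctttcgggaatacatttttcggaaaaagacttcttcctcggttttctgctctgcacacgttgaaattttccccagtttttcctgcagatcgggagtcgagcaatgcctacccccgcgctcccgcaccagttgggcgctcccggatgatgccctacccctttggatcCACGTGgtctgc
USP36, chr17:78840815-78841064, minus strand: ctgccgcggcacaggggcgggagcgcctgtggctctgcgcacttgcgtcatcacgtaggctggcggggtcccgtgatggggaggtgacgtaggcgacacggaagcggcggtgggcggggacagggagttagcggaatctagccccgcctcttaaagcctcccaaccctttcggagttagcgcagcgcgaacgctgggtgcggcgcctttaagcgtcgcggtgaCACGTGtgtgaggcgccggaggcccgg

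The first base of the letters lies 85 bases before the start in FJX1, 193 in MNT, 12 in CD3EAP and 27 in USP36. A match describes the sequence and is not evidence of binding. A comparison of all rises and falls is void, since only 73.7% of the 517 falls and 79.1% of the 187 rises have a promoter in the table, under the minimum of 80%. In the list of RNA polymerase I and ribosome assembly genes, 64 of 76 had one, and 24 of these (37.5%) held the letters somewhere in the window, beside the 10.6% of tested genes.

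Some genes of ribosome production fell. Of 76 tested genes listed under RNA polymerase I, its factors and ribosome assembly, 15 fell, 0 rose and 61 were not called. Among all tested genes 4.36% fell. The list's median change was −0.41 against −0.10 for all tested genes. On unnormalised values 55 of the 76 fell, where 29.1% of all genes did. CD3EAP, the PAF49 subunit of RNA polymerase I, went from 24.1, 20.3 and 21.6 to 9.05, 8.43 and 7.83 FPKM (change −1.28, adjusted p = 2.31e-04, limma). It overlaps ERCC1 on the other strand, and reads of the pair may be divided unevenly. MYBBP1A, a nucleolar protein in pre-ribosomal RNA processing, went from 77.7 ± 14.1 to 37.0 ± 3.71 FPKM (change −1.04, adjusted p = 0.00907). NLE1, which acts in the maturation of the large subunit, went from 38.9 ± 4.54 to 19.8 ± 2.29 (change −0.94, adjusted p = 0.0106). RRP1B, a nucleolar protein of the same process, went from 60.9 ± 9.74 to 34.1 ± 1.87 (change −0.81, adjusted p = 0.0187).

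The other 11 falls in this list, named here after their values were seen, were RRP12, RRS1, POLR1A, PPAN, PWP2, RRP9, POLR1C, TAF1C, POLR3D, NOP2 and NOB1, at −0.60 to −0.88. They cover the catalytic subunit of RNA polymerase I (POLR1A), a subunit it shares with RNA polymerase III (POLR1C), and factors of both ribosomal subunits. POLR3D, though counted in this list, belongs to RNA polymerase III. CD3EAP kept the call without each of the 6 libraries, and the other 14 lost it without 2 h library 0 and without 6 h library 2. POLR1C, POLR3D, NOP2 and NOB1 lost it without any 1 of the 6, and PWP2 and RRP9 without each but 2 h library 2.

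None of 78 tested cytosolic ribosomal protein genes rose or fell, with a median change of −0.19. On unnormalised values 9 of them fell, where 29.1% of all genes did. RPL21 stood at 66.5, 130 and 174 FPKM at 2 h and at 61.3, 45.0 and 64.2 at 6 h (change −1.01, SE 0.54, adjusted p = 0.25, limma), groups that do not overlap but with a wide spread at 2 h. RPL28 stood at 661, 568 and 549 FPKM at 2 h and at 498, 484 and 381 at 6 h (change −0.39, adjusted p = 0.288, limma). Of 74 mitochondrial ribosomal protein genes 2 fell (MRPS2, −0.83, and MRPS30, −0.62), and none of 60 translation factors and aminoacyl-tRNA synthetases did. Of 41 genes of nucleotide, polyamine and one-carbon synthesis, PFAS (−0.74) and DHODH (−0.69), enzymes of purine and pyrimidine synthesis, fell. Among all tested genes 4.36% fell. MRPS2, MRPS30 and DHODH lost the call without each of the 6 libraries in turn, and PFAS without each but 2 h library 2. On unnormalised values 28 of the 74 mitochondrial genes, 27 of the 60 translation genes and 19 of the 41 synthesis genes fell. In the same lists 5, 7 and 5 rose, where 29.1% of all genes fell and 23.1% rose.

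**Figure D3:**
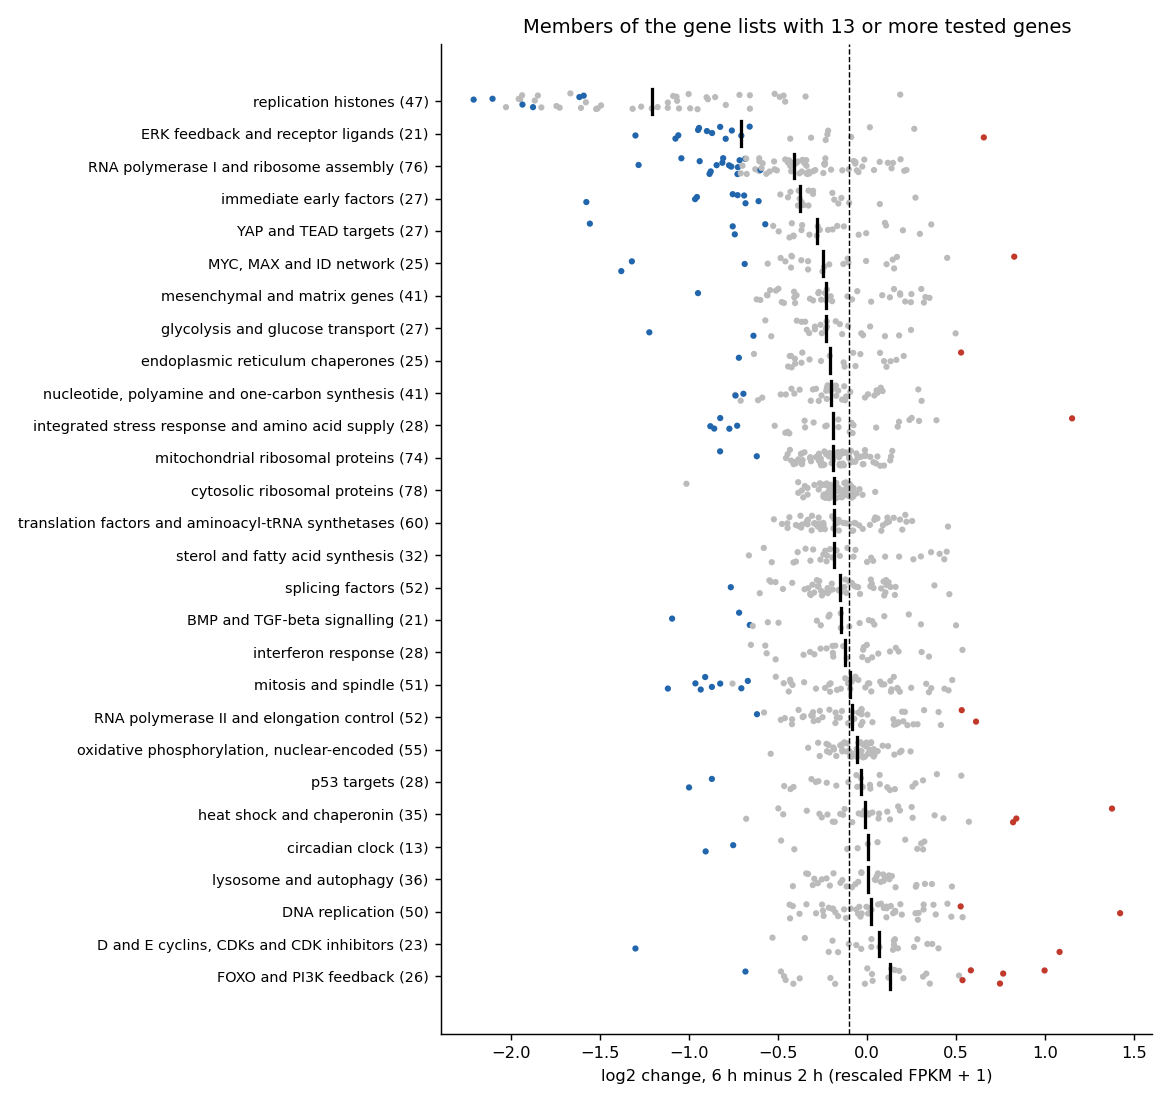
The log2 change of each member of the 28 gene lists with 13 or more tested genes (number tested in brackets), in red where it rose, blue where it fell and grey where it was not called. Black bars are list medians and the dashed line is the median of all tested genes, −0.10. Falls crowd in the ERK feedback, RNA polymerase I and immediate early lists, and rises in the FOXO and PI3K feedback list.

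The list of ERK feedback genes and receptor ligands also held many falls. The ERK kinase cascade induces its own phosphatases and inhibitors, the DUSP, SPRY and SPRED genes, and the ETV factors. Of 21 tested genes 12 fell and 1 rose, against 4.36% and 1.58% of all tested genes. The median change was −0.71 against −0.10 for all tested genes. On unnormalised values 15 fell, where 29.1% of all genes did. DUSP4, a nuclear ERK phosphatase, was at 2.21, 2.18 and 2.36 FPKM at 2 h and at 1.09, 0.841 and 0.713 at 6 h (change −0.79, adjusted p = 0.00155, limma). PLAUR, the urokinase receptor, went from 35.3 ± 5.12 to 16.4 ± 2.01 FPKM (change −1.06, adjusted p = 0.00174). VGF, a neuropeptide precursor, went from 8.28 ± 1.87 to 3.36 ± 0.492 (change −1.08, adjusted p = 0.00229). These genes and CCND1 kept the call without each of the 6 libraries.

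The other members that fell, named after their values were seen, were LIF (−0.95), ETV4 (−0.94), EPHA2 (−0.90), ETV5 (−0.87), DUSP7 (−0.83), SPRED2 (−0.76), DUSP5 (−0.71) and SPRY2 (−0.66). The 1 rise was EPGN, a ligand of the EGF receptor, from 8.45 to 14 FPKM (change 0.65). Not called were DUSP1 (−0.43), SPRED1 (−0.31), PHLDA1 (−0.23) and HBEGF (−0.22), among 8 such members. LIF kept its call without each of the 6 libraries, and the other 7 and EPGN lost it without 2 h library 0 and without 6 h library 2. SPRY2 lost it without each but 2 h library 2. With no filter on low values, the median over the whole list was −0.27, and that of all genes was −0.00423.

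Immediate early genes, which growth factors induce within minutes, also held falls. On unnormalised values 20 of 27 tested fell and 1 rose, against 29.1% and 23.1% of all genes. On rescaled values 8 fell and 0 rose, against 4.36% and 1.58%, with a median change of −0.38. Besides FOSL1 these included MAFF, a small MAF factor, from 4.00 ± 0.505 to 1.56 ± 0.282 FPKM (change −0.97, adjusted p = 0.00163, limma), and KLF2, from 7.06 ± 0.416 to 3.18 ± 0.533 (change −0.96, adjusted p = 0.00408). CTGF, a matrix protein that is also a YAP target, went from 56.6 ± 7.75 to 33.1 ± 3.66 (change −0.75, adjusted p = 0.0215). The other 4, named after their values were seen, were ZFP36L2, NR4A1, FOSL2 and SRF, at −0.61 to −0.73. JUN (−0.38), EGR1 (−0.44) and JUNB (−0.36) were not called. Of 27 YAP and TEAD targets 4 fell, FJX1, CTGF, ANKRD1 and TEAD4, with a median change of −0.28. FOSL1, MAFF, KLF2 and FJX1 kept the call without each of the 6 libraries. The other members of both lists named as falls lost it without 2 h library 0, without 6 h library 0 and without 6 h library 2. SRF, ANKRD1 and TEAD4 lost it without any 1 of the 6.

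The MYC, MAX and ID list changed in both directions. Of 25 tested genes 3 fell and 1 rose, against 4.36% and 1.58% of all tested genes. Beside TFAP4 and MNT, MXI1, another MAX partner, went from 6.78 ± 0.894 to 3.81 ± 0.0746 FPKM (change −0.69, adjusted p = 0.0217, limma), a call lost without 2 h library 0, 6 h library 0 or 6 h library 2. MYC itself rose, from 3.36, 2.07 and 2.64 to 5.70, 5.43 and 5.30 FPKM (change 0.83, SE 0.16, adjusted p = 0.00768). The lowest 6 h library was above the highest 2 h library, and the call held without each of the 6 libraries. The MYC mean was 2.51 at 0 h, 10.3 at 16 h and 5.47 at 24 h. MAX (−0.56), ID1 (−0.24), ID2 (−0.11) and ID3 (−0.49) were not called.

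**Figure D4:**
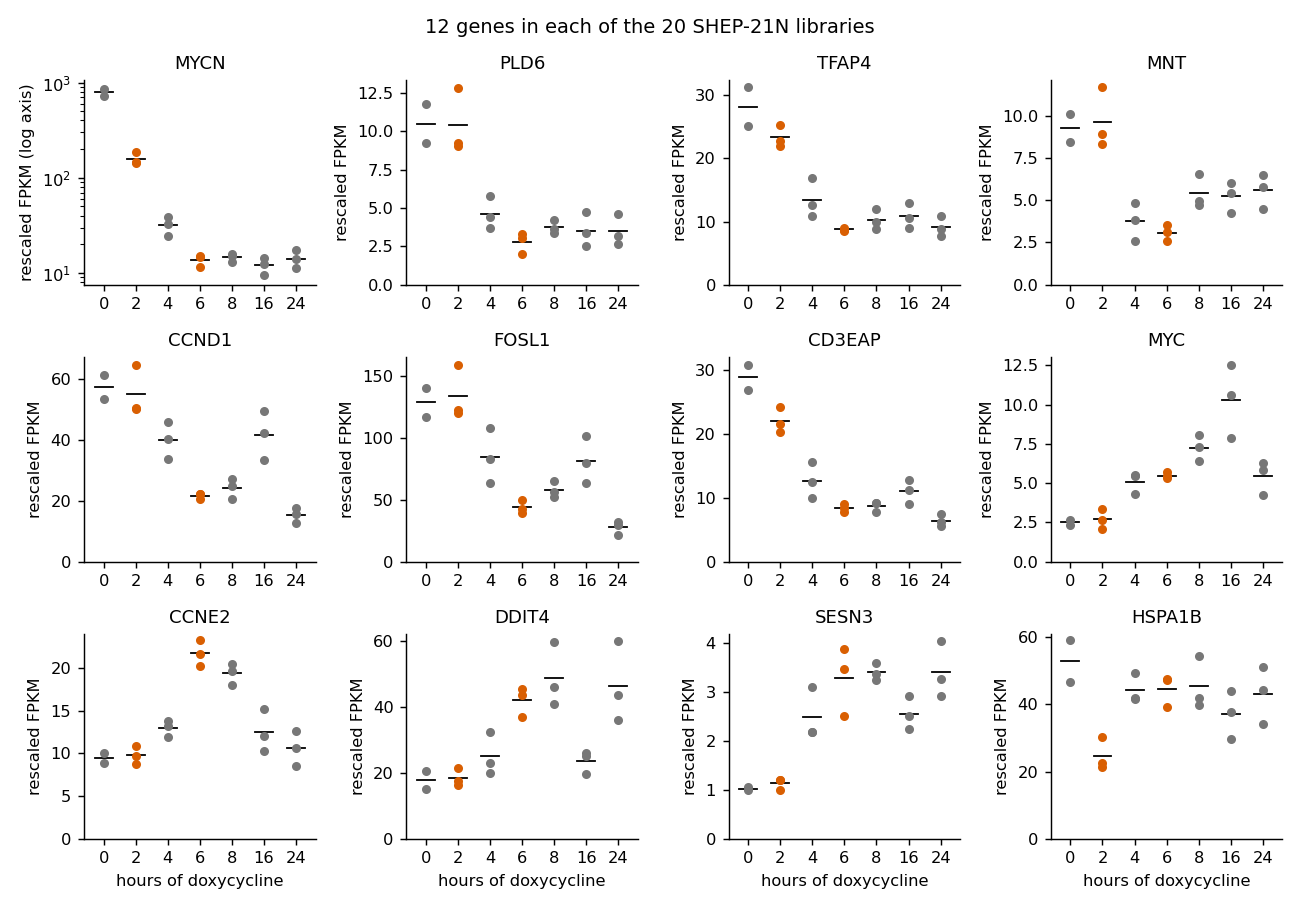
Rescaled FPKM of 12 genes in each of the 20 SHEP-21N libraries by hours of doxycycline, with 2 h and 6 h in orange and the mean of each time as a bar; the MYCN axis is logarithmic. MYCN drops from 159 at 2 h to 13.8 at 6 h, PLD6, TFAP4, MNT, CCND1, FOSL1 and CD3EAP lie lower at 6 h, and MYC, CCNE2, DDIT4, SESN3 and HSPA1B lie higher.

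Among the cell cycle genes, cyclin D1 and cyclin E2 moved in opposite directions. CCNE2, which with CDK2 promotes entry into S phase, was at 10.8, 9.75 and 8.72 FPKM at 2 h and at 21.6, 20.3 and 23.3 at 6 h. Its 6 h mean was 2.22 times the 2 h mean (change 1.08, SE 0.15, adjusted p = 4.03e-04, limma). The 16 h and 24 h means, 12.5 and 10.6, were nearer to the 0 h mean of 9.45. Among all tested genes 1.58% rose and 4.36% fell. Of 23 cyclins D and E, CDKs and their inhibitors, CCND1 and CCNE2 were the 2 called. CCNE1 (0.26), CDK4 (−0.35), CDKN1A (−0.03) and CDKN1B (0.16) were not.

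FAM111B, a protease linked to DNA replication, had the largest rise of a protein-coding gene. It was at 2.03, 2.53 and 1.91 FPKM at 2 h and at 7.14, 5.45 and 10.4 at 6 h (change 1.42, SE 0.18, adjusted p = 3.15e-04, limma). MCM10, which helps load the replication machinery, went from 11.7 ± 1.19 to 17.2 ± 2.08 (change 0.52, adjusted p = 0.0388) but lost the call without each of the 6 libraries in turn. These were the 2 rises among 50 DNA replication genes, none of which fell, against 1.58% and 4.36% of all tested genes. The median change was 0.02. On unnormalised values 23 rose and 10 fell, against 23.1% and 29.1% of all genes.

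Among 51 tested mitotic genes 8 fell and 0 rose, against 4.36% and 1.58% of all tested genes, and the median change, −0.09, was close to that of all tested genes. On unnormalised values 18 fell and 7 rose, against 29.1% and 23.1% of all genes. INCENP, a subunit of the chromosomal passenger complex, went from 62.6, 48.4 and 47.7 to 28.1, 27.8 and 25.1 FPKM (change −0.93, adjusted p = 0.00559, limma). UBE2C, the ubiquitin-conjugating enzyme of the anaphase-promoting complex, went from 521 ± 45.4 to 240 ± 22.5 (change −1.12, adjusted p = 0.00767). HJURP (−0.82), which deposits the centromeric histone CENPA, and CCNF (−0.96), cyclin F, also fell. CDCA8, AURKB, CDK1 and CENPA, named after their values were seen, fell by 0.91, 0.87, 0.71 and 0.67 on the log2 scale. INCENP and HJURP kept the call without each of the 6 libraries, and the other 6 lost it without 2 h library 0 and without 6 h library 2. CDK1 and CENPA lost it without each but 2 h library 2. With each library's GC and length trend removed, the median of the list was −0.23.

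Replication histone genes had the lowest median of the lists, −1.21, with 6 of 47 called lower and 0 higher (4.36% and 1.58% of all tested genes). This rests on the 2 h libraries that stood apart. HIST1H2AJ stood at 23.4, 18.8 and 1.86 FPKM at 2 h and at 1.75, 0.606 and 2.16 at 6 h (change −2.21, adjusted p = 0.0233, limma). Its 2 h library 2 lies within the range of the 6 h libraries, and the call was lost without each library but that one. Without 2 h library 2, 44 of the 47 were called lower, and without 2 h libraries 0 and 1, none. These genes are near-identical copies of each other, so their separate values are uncertain.

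The rises included genes that FOXO factors induce when PI3K signalling is low. Of 26 tested genes of this list 5 rose and 1 fell, against 1.58% and 4.36% of all tested genes, with a median change of 0.13. On unnormalised values 13 rose and 6 fell, against 23.1% and 29.1% of all genes. SESN3, a sestrin that restrains mTORC1, was at 1.20, 1.20 and 0.996 FPKM at 2 h and at 3.47, 2.51 and 3.88 at 6 h (change 1.00, SE 0.14, adjusted p = 6.16e-04, limma). CCNG2, cyclin G2, went from 1.34 ± 0.227 to 2.92 ± 0.168 (change 0.75, adjusted p = 0.00527). PNRC1, a nuclear receptor coactivator, went from 4.18 ± 0.923 to 7.73 ± 0.901 (change 0.76, adjusted p = 0.0218).

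YPEL5 (0.58) and YPEL2 (0.53), named after their values were seen, were the other 2 rises. TRIB1, a pseudokinase, fell from 3.69 ± 0.389 to 1.92 ± 0.169 (change −0.68, adjusted p = 0.0217, limma). FOXO1 (−0.21), FOXO3 (−0.41) and IRS2 (−0.48) were not called. SESN3 and CCNG2 kept the call without each of the 6 libraries, and the other 4 called members lost it without 6 h library 2. With GC and length trends removed, CCNG2 and YPEL5 were not called.

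DDIT4, which encodes REDD1, another inhibitor of mTORC1, stood apart from the rest of the integrated stress response list. It was at 21.3, 17.6 and 16.2 FPKM at 2 h and at 45.4, 43.5 and 36.9 at 6 h (change 1.15, SE 0.21, adjusted p = 0.00515, limma). Of the 28 tested genes of that list it was the 1 rise, and 5 fell, against 1.58% and 4.36% of all tested genes. On unnormalised values 5 rose and 12 fell, against 23.1% and 29.1% of all genes. VEGFA (−0.88) and the amino acid transporters SLC7A5 (−0.86), SLC7A1 (−0.77) and SLC1A5 (−0.82) fell, as did TRIB3 (−0.73). SLC1A5 and TRIB3 were named after their values were seen. DDIT4 and VEGFA kept the call without each of the 6 libraries, and the other 4 lost it without 2 h library 0 and without 6 h library 2. ATF4 (−0.30), ASNS (−0.10) and DDIT3 (0.17) were not called. DDIT4 was also high at 8 h (mean 48.8) and 24 h (46.4), but at 23.6 at 16 h.

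Among 35 tested heat shock genes 3 rose and 0 fell, against 1.58% and 4.36% of all tested genes, and on unnormalised values 12 rose and 7 fell, against 23.1% and 29.1%. DNAJB4, a cochaperone of HSP70, was at 12.1, 11 and 10.3 FPKM at 2 h and at 29.5, 29.1 and 32.5 at 6 h (change 1.37, SE 0.14, adjusted p = 4.20e-05, limma). Its 6 h mean was 2.73 times the 2 h mean, and the 0 h mean was 15.2. HSPA1B, an inducible HSP70, was at 30.4, 22.5 and 21.4 and then at 47.1, 47.7 and 39.2 (change 0.84, adjusted p = 0.0184). The HSPA1B mean at 0 h, 52.9, was above that at 6 h, 44.7, so that 2 h was the low point of the course. HSPA1A (change 0.82) is a near-identical copy, and the reads of the pair cannot be assigned with certainty. Both lost the call without 2 h library 1, 2 h library 2, 6 h library 0 or 6 h library 1.

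The remaining large rises were MAP2K6 (0.88), a kinase that activates p38, RARB (0.88), a retinoic acid receptor, TAOK1 (0.79), a kinase upstream of p38, DHRS3 (0.78), which reduces retinal, KRCC1 (0.77) and HP07349 (1.07). RARB went from 11.2, 11.1 and 8.47 to 19.5, 18.7 and 20.6 FPKM (SE 0.16, adjusted p = 0.00486, limma). RARB was at 10.4 at 0 h and at 22.7 at 24 h, and DHRS3 was at 11.1 and 39.9. MAP2K6 and RARB kept the call without each of the 6 libraries, whereas DHRS3 lost it without any 1 of them. KRCC1, TAOK1 and HP07349 were among those that lost it without 6 h library 2. With GC and length trends removed, MAP2K6, TAOK1 and KRCC1 were not called. Of the 15 largest rises 8 were still called without each of the 6 libraries, and 3 (FAM111B, DNAJB4 and CCNE2) with 2 h library 2 as the only 2 h library.

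Signalling and clock genes added single falls. NOG, the BMP antagonist noggin, went from 3.88, 3.31 and 3.25 to 1.33, 0.956 and 1.01 FPKM (change −1.09, adjusted p = 3.15e-04, limma). PMEPA1 (−0.72), an inhibitor of TGF-beta signalling, and SKI (−0.66), a SMAD corepressor, were the other 2 falls among 21 BMP and TGF-beta genes. SKI lost the call without any 1 of the 6 libraries. Among all tested genes 4.36% fell and 1.58% rose. PER1, a repressor of the circadian clock, went from 7.74 ± 1.17 to 3.66 ± 0.543 (change −0.91, adjusted p = 0.00388). BHLHE41, another clock repressor, went from 2.22 ± 0.246 to 0.911 ± 0.0999 (change −0.75, adjusted p = 0.00403). They were the 2 calls among 13 clock genes, whose median change was 0.00375. On unnormalised values 4 of the 13 rose and 4 fell, against 23.1% and 29.1% of all genes.

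Elsewhere few members were called on rescaled values, where 1.58% of all tested genes rose and 4.36% fell. Of 28 p53 targets PLK3 (−0.87) and AEN (−1.0) fell, and CDKN1A did not. On unnormalised values 9 of the 28 rose and 8 fell, against 23.1% and 29.1% of all genes. Of 27 glycolysis genes HK2 and PFKFB3 (−0.64) fell. Of 52 genes of RNA polymerase II and elongation control AFF4 (0.53) and MED13 (0.61) rose and ELL (−0.62) fell, of 25 endoplasmic reticulum chaperone genes SEL1L (0.53) rose and XBP1 (−0.72) fell, and of 52 splicing factors SF3A2 (−0.77) fell. ACTA2 (−0.95), smooth muscle actin, was the 1 fall among 41 mesenchymal and matrix genes. Apart from PLK3 and HK2, each of these calls was lost without 6 h library 2. ELL and SF3A2 lost the call without any 1 of the 6 libraries. On unnormalised values 10 of the 41 mesenchymal and matrix genes rose and 21 fell, and of the 27 glycolysis genes 4 and 13. Of the 52 RNA polymerase II genes 14 rose and 15 fell there. The counts were 5 and 13 of the 25 endoplasmic reticulum genes and 11 and 22 of the 52 splicing factors.

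None of 55 nuclear-encoded oxidative phosphorylation genes, 36 lysosome and autophagy genes, 32 sterol and fatty acid genes, 28 interferon genes or 7 adrenergic genes rose or fell by limma. On unnormalised values 10, 20, 20, 12 and 1 of them were called in either direction, where 23.1% of all genes rose and 29.1% fell. The smallest p-values belonged to ATP5D (−0.54, adjusted p = 0.159), LAMP2 (0.48, 0.0662), FASN (−0.66, 0.0686), IRF9 (0.53, 0.0856) and GATA2 (−0.53, 0.0796).

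Other libraries of the course gave changes of means that share no sample with this comparison. Their calls are not separate from it, since the same fit takes each gene's spread from all 20 libraries. From 4 h to 8 h, 1 gene of 11867 rose (0.00843%) and 3 fell (0.0253%). None of the 187 rises was called there, and their median change was 0.19 against −0.02 for all tested genes. Of the 517 falls, SLC6A15 and SLC7A2 were called lower, and the median change was −0.32. The fitted change had the same sign for 164 of the 187 and 476 of the 517. It lay above the median of all tested genes for 174 of the 187 and below it for 469 of the 517. On unnormalised values 58 of the 187 rose and 319 of the 517 fell from 4 h to 8 h, against 9.29% and 12.9% of all genes. In the other direction 0 of the 187 fell and 6 of the 517 rose.

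From 0 h to 24 h, 6.16% of all genes rose and 32.4% fell. Of the 187 rises 113 were also higher at 24 h and 2 were lower, with a median change of 0.56 against −0.31 for all genes. Of the 517 falls 468 were lower at 24 h and 0 were higher, with a median change of −1.01. SESN3 (1.11) and DDIT4 (1.32) were among the former. CCNE2 was not called from 0 h to 24 h (0.14, adjusted p = 0.507, limma), nor was DNAJB4 (0.39, adjusted p = 0.0612). The 4 h mean lay between the 2 h and 6 h means for 177 of the 187 rises (94.7%), 508 of the 517 falls (98.3%) and 6996 of all 11867 genes (59.0%). The 2 h and 6 h means in this count are those that chose the genes, so the shares are a description.

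**Figure D5:**
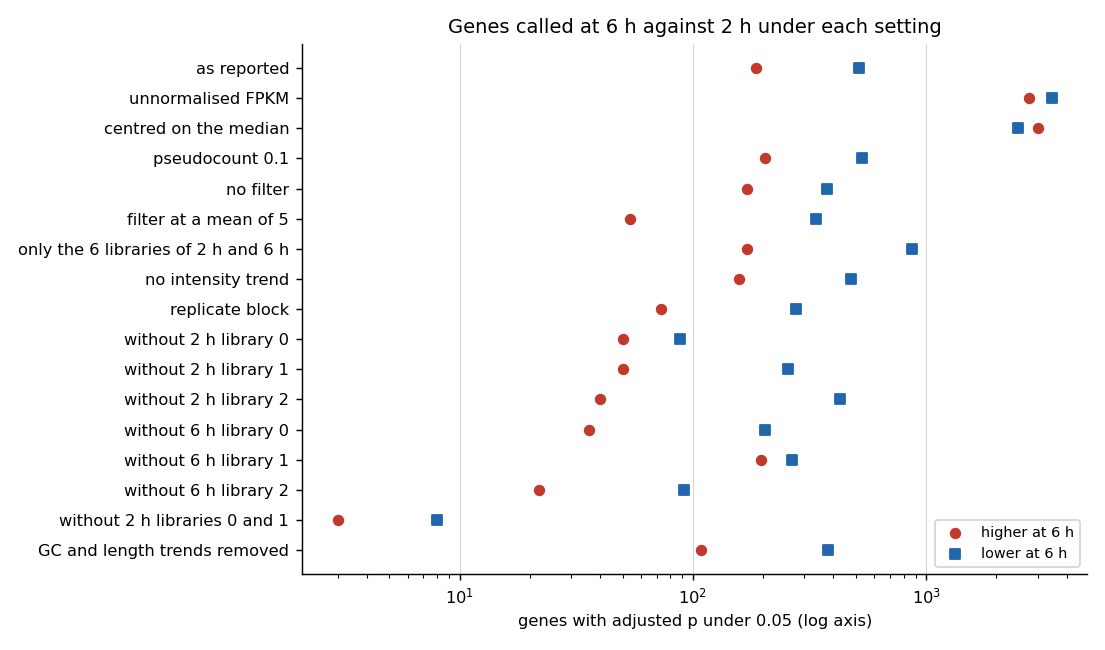
The number of genes with adjusted p under 0.05 that were higher (red circles) or lower (blue squares) at 6 h than at 2 h, on a log axis, under each setting and without each of the 6 libraries. The counts are highest on unnormalised and median-centred values, at 2485 to 3451, and lowest without 2 h libraries 0 and 1, at 3 and 8.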

How the data were processed

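RNA of SHEP-21N cells was isolated after cell numbers had been determined, with ERCC spike-ins added at lysis, and stranded libraries were made from polyadenylated RNA, per the labels' protocols. Per the submitters' processing notes the aligner was HISAT, the build hg19, and Cufflinks 2.0.0 gave the values. The authors deposited FPKM in 2 tables, as computed and after rescaling to the spike-ins; the sources used here do not give the rescaling method. The first table holds 0 for 30.9% of these libraries' values. In the second these stand at 0.0893 to 0.117 FPKM, so levels near 0.1 are no evidence of expression.

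Computed here (R 4.3.3, limma 3.58.1, Python 3.11.15): genes with a mean of at least 1 unnormalised FPKM in the 20 libraries, log2(rescaled FPKM + 1), a linear model with 1 mean per time (13 residual degrees of freedom), moderated variances with an intensity trend, the contrast 6 h minus 2 h, and Benjamini-Hochberg adjustment over 11867 genes. The fit was tested on simulated data. Columns were matched to groups by name. Named genes are MYCN, the 15 largest rises and 15 largest falls with adjusted p under 0.05 and libraries that do not overlap, leaving out small and uncharacterised RNAs (166 and 486 were eligible), and up to 4 called members of each of 33 lists by smallest p, or the 2 with the smallest p where none was called. The members and lists were chosen with earlier results of these data known. Promoters are RefSeq's (GRCh38.p14), matched by symbol or synonym. GC and length are those of the longest GENCODE 29 transcript, and their trends were removed with splines of 5 degrees of freedom each. Alternatives were unnormalised or median-centred values, a pseudocount of 0.1, no filter or a mean of 5, only these 6 libraries, no trend, a replicate block, and leaving out each library. The GC correction, the fit without 2 h libraries 0 and 1, and the alternatives of the unnormalised counts were added after seeing the data. BE(2)-C and other samples (29) were not analysed here.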

Additional observations from a re-analysis of the deposited data

How the results depend on the processing

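The rises numbered 187 and the falls 517. On unnormalised FPKM they numbered 2745 and 3451, after centring on the median 3009 and 2485, with a filter at a mean of 5 FPKM 54 and 338, and without 2 h libraries 0 and 1 they numbered 3 and 8. With only the 6 libraries of 2 h and 6 h the falls numbered 865, and with GC and length trends removed the rises numbered 108. Leaving out 1 of the 20 libraries gave 22 to 295 rises and 88 to 718 falls. The low ends came without 6 h library 2 (22 rises, 92 falls) and without 2 h library 0 (50 and 88). Without 6 h library 0 they were 36 and 203, without 2 h library 2 40 and 429, without 2 h library 1 50 and 255, and without 6 h library 1 196 and 267. Leaving out a library of another time gave 103 to 295 rises and 344 to 718 falls. The median change of all tested genes, −0.10, turned to 0.0230 after centring and to 0.0239 without 2 h libraries 0 and 1, where 1 library of 2 h is left. The cause of these shifts was not tested.

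The deviations of libraries with the same number correlated at −0.04, −0.11 and −0.10 between 2 h and 6 h, so the numbers were not taken to pair the samples. With a replicate block the rises numbered 73 and the falls 276, of which 73 and 275 were among those reported. The MYCN change was −3.51 to −3.27 over the alternatives run, with adjusted p from 3.67e-13 to 2.16e-05 (limma). Of 92 named genes 90 kept their direction in each alternative run. The exceptions were not called: PMP22 ran from −0.15 to 0.06 and CD68 from −0.23 to 0.04.

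On unnormalised FPKM the rises ranged from 1786 to 2822 and the falls from 2620 to 3466 over the 6 libraries left out in turn, the rises being lowest without 6 h library 2. Without 2 h libraries 0 and 1 they were 1285 and 2117. From 4 h to 8 h the reported rises and falls called in the same direction went from 0 and 2 to 58 and 319 on unnormalised values, and the rises called from 0 h to 24 h from 113 to 176. Of the RNA polymerase I list's promoters, 37.5% held CACGTG in the whole window and 17.2% in the 250 bases before the start. For tested genes, of which 77.9% had a promoter, under the minimum, these shares were 10.6% and 9.24%. The shares for all rises and falls were void, so their alternative was not run. FPKM set no depth limit that could be computed.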
